A study of Mus musculus with 4 samples.

Results

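F-box proteins are the interchangeable substrate receptors of the SCF ubiquitin ligases, in which the scaffold Cul1 holds a RING protein at its far end and the adaptor Skp1 at its near end. Skp1 binds the F-box of the receptor, and the receptor binds the protein to be marked. This is the sister arrangement to the Cul3 ligases, where BTB proteins serve as adaptor and receptor at once. The receptors are grouped by the part that grips the substrate: leucine-rich repeats in the Fbxl proteins and Skp2, WD repeats in the Fbxw proteins and Btrc, and other folds in the Fbxo proteins and Ccnf. In T cells and their precursors SCF ligases act on cell cycle inhibitors, on the NF-kB inhibitor and on factors such as Myc and Notch1.

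The genes were taken by symbol: every probe set with a single annotated gene whose symbol began with Fbxl, Fbxo or Fbxw and a number, or was Skp1, Skp1a, Skp2, Btrc or Ccnf. This gave 71 genes and 130 probe sets among the 18193 genes and 34945 single-gene probe sets on the array. No probe set was annotated as Skp1a. Of the 71, Skp1 is the adaptor and Fbxl12os, matched by its name, is no receptor. It is named as an opposite-strand transcript of Fbxl12, but its RefSeq span on chromosome 9 does not overlap that of Fbxl12. Another 2 probe sets named a pair of Fbxw genes each and were left out.

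RNA came from sorted CD4 single-positive thymocytes of B6 mice, with cells bearing CD25, binding the PBS57-loaded CD1d tetramer or carrying a γδ T cell receptor gated out. The groups were CD4Cre-Cul3fl/fl (LM, floxed Cul3 and no Cre, 2 arrays) and CD4 Cre+Cul3fl/fl (KO, floxed Cul3 with Cre under CD4 control, 2 arrays), so both carry floxed Cul3. No group carries Cre without floxed Cul3, and effects of Cre and of Cul3 loss cannot be told apart. No label gives the age of the mice or ties the arrays of a group to separate mice, so the p-values speak only to the spread among these 4 samples, and that spread may be technical.

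Values are signal intensities per probe set, compared as quantile-normalized log2(signal + 16), with each gene represented by the probe set of highest mean. A gene was tested if it exceeded background on at least 2 arrays, background being the 95th percentile of 80 probe sets for odorant and pheromone receptors, which came to signals of 77.7 to 106. Cul3 itself gave signals of 5333 and 5724 in LM and of 5380 and 5577 in KO (log2 difference -0.01 ± 0.09, SE, limma adjusted p = 0.994), so the genotype rests on the labels and KO below means the arrays labelled KO. All 7 CD4 single-positive markers with a named probe set, among them Cd4, Cd3e and Zbtb7b, were above background on every array. Of the B cell markers 4 of 5 and of the thymic epithelial markers 4 of 6 were below background on all 4 arrays, and of the myeloid markers 3 of 8. The list for natural killer T and γδ T cells, which were gated out, had 4 genes with a named probe set. Of these 3 (Zbtb16, Cd1d1 and Sox13) were above background on every array, and Blk was below it on all 4. Cd1d1 encodes the CD1d molecule that natural killer T cells bind, so its signal does not mark those cells. Zbtb16 lay near background, at 164 and 158 in LM against 119 and 111 in KO. Of 7 double-positive thymocyte markers with a named probe set, 5 were above background on every array, among them Dntt at 1865 to 2453 and Cd8a at 625 to 926, and only Ptcra was below it on all 4. Their summed signal was 3528 and 4222 in LM, against 4065 and 4206 in KO, which overlapped. All 7 regulatory T cell markers were above background on every array. Il2ra, which encodes the CD25 used for gating, read 611 and 540 in LM, against 963 and 949 in KO (limma adjusted p = 0.221). Foxp3 read 499 and 289 in LM, against 794 and 363 in KO, which overlapped. The summed signal of the 7 was 7133 and 7646 in LM, against 10030 and 8865 in KO, and its part in the results below was not tested.

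None of the F-box genes passed the threshold. Of the 51 tested, 0 were called at an adjusted p under 0.05 in limma, where 0.275% of all 11255 genes tested were called. At an unadjusted p under 0.05 there were 3 members, or 5.88%, against 8.4% of all genes. On the higher side, where 4.23% of all genes lay, they were Fbxw9 (0.56 ± 0.21, KO minus LM on the log2 scale ± SE) and Fbxo10 (0.65 ± 0.29). On the lower side, where 4.17% of all genes lay, it was Fbxo5 (-0.50 ± 0.22). Differences were positive for 25 members and negative for 26, with a median of -0.0026 against 0.0018 over all genes tested. The normalized KO and LM values did not overlap for 9 members that were higher, 17.6% against 19.1% of all genes, and for 5 that were lower, 9.8% against 18.3% of all genes. None of these shares lay above its background. The 95% interval of the difference lay within -1 to 1, that is within 2-fold either way, for 36 of the 51 members, and within -0.5 to 0.5 for 12. For the other 15 members a 2-fold difference lay inside the interval.

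**Figure D1:**
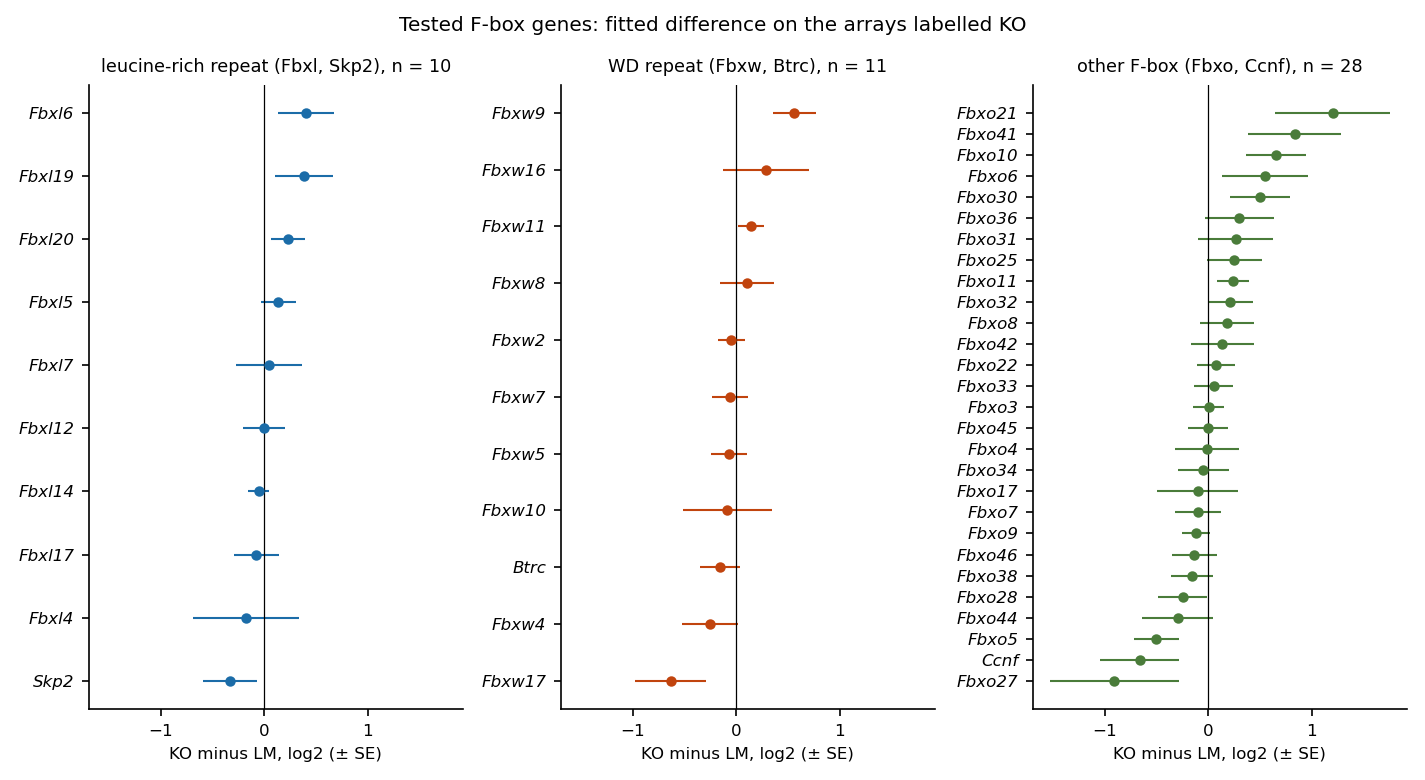
Fitted KO minus LM difference (log2, horizontal axis) with its standard error for the 49 tested receptors in 3 structural classes, 2 arrays per group. Most points lie within 0.5 of 0, with Fbxo21 at 1.20 and Fbxo27 at -0.91 as the extremes and long error bars on both. Fbxo21 exceeded background on 3 arrays and Fbxo27 on 2.

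The receptors whose own RNA is known to rise and fall with the cell cycle are Skp2, Ccnf and Fbxo5. Skp2 recognises the cyclin-dependent kinase inhibitor p27, cyclin F (Ccnf) acts in the second part of the cycle on the centriole protein Ccp110 and the ribonucleotide reductase subunit Rrm2, and Fbxo5 (Emi1) blocks the anaphase-promoting complex rather than serving chiefly as a receptor. The stretches before their RefSeq start sites are shown because these 3 genes had lower means together, a choice made with the differences known. Of the 51 tested members, 26 had negative differences. Capitals mark matches, on either strand, to the cell cycle homology region TTTGAA and to the CCAAT box. Each line gives the 150 bases before a start, build GRCm38.p6, 5′ to 3′ on the gene's strand.
Ccnf, chr17:24251410-24251559, minus strand: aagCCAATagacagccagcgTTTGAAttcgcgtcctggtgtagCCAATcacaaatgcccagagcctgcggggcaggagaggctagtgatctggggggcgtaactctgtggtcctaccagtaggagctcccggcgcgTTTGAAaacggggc
Fbxo5, chr10:5805466-5805615, minus strand: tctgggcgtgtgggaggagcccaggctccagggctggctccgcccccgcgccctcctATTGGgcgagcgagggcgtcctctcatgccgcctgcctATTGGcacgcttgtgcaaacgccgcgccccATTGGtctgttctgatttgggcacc
Skp2, downstream start, chr15:9140455-9140604, minus strand: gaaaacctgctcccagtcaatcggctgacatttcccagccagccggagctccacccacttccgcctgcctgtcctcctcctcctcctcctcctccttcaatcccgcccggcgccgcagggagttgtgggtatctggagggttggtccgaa
Skp2, upstream start, chr15:9155426-9155575, minus strand: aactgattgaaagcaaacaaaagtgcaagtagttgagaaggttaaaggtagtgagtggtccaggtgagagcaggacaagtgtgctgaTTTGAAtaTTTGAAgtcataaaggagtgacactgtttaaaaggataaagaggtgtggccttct

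The full windows of 300 bases, 250 before and 50 after each start, were searched. Ccnf held 2 matches to TTTGAA and 2 to CCAAT. Fbxo5 held 3 to CCAAT and 1 to TTTGAA, the last after the start and so not printed. The upstream Skp2 window held 2 to TTTGAA and 1 to CCAAT, and the downstream window held neither. Among all 32851 windows of this length, 17.9% held TTTGAA and 37.4% held CCAAT. The E2F letters TTTCCCGC, TTTCGCGC, TTTGCCGC and TTTGGCGC matched in none of the 4 windows and in 2.26% of all windows. No motif searched contains another in full. These matches describe letters, not sites in use, and their part in the lower values was not tested. Matches were not counted for the other members, so none is shown to be particular to these genes.

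Fbxo5 read 509 and 523 in LM, against 358 and 360 in KO. The groups did not overlap, and the difference was -0.50 ± 0.22 (SE, limma adjusted p = 0.567), a signal 1.42-fold higher in LM. Its difference was -0.55 to -0.45 with any 1 array left out, so no array decided it.

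Ccnf read 169 and 179 in LM, against 138 and 84.7 in KO. Both KO arrays were lower, KO replicate 2 by far the more, and the difference was -0.66 ± 0.38 (SE, limma adjusted p = 0.722). It was -0.31 without KO replicate 2 and -1.02 without KO replicate 1. A second Ccnf probe set was below background on every array.

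Skp2 read 408 and 416 in LM, against 258 and 402 in KO on its probe set of highest mean. KO replicate 2 lay close to the LM arrays and overlapped them once normalized. The difference was -0.33 ± 0.26 (SE, limma adjusted p = 0.822), or -0.04 without KO replicate 1 and -0.62 without KO replicate 2. All 6 probe sets of Skp2 were lower in KO, by -0.24 to -0.59, and in 4 of the 6 the groups did not overlap. The tightest of them read 329 and 325 in LM, against 234 and 235 in KO. Over all genes tested, each by 1 probe set, 18.3% were lower in KO without overlap, and no such share was taken over probe sets. Probe sets of a gene share the same RNA and arrays, and are not replicates of the difference.

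Cell cycle genes were lower in KO too. Of 30 tested cell cycle genes 28 were lower, with a median of -0.64, and 7 fell past the threshold where 0.142% of all genes did: Mki67 (-0.86), Top2a (-1.44), Kif11 (-1.25), Cenpe (-1.41), Ccna2 (-1.11), Cenpf (-1.21) and Uhrf1 (-1.09). All 7 calls are lost without the intensity trend, where the smallest limma adjusted p of any gene was 0.228, and without the filter on dim genes, where it was 0.0713. The summed signal of the 31 with a probe set was 50830 and 52110 in LM, against 35310 and 36830 in KO. Its part in the lower Skp2, Ccnf and Fbxo5 values was not tested, and in sorted bulk cells fewer cycling cells and less RNA per cycling cell cannot be told apart.

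**Figure D2:**
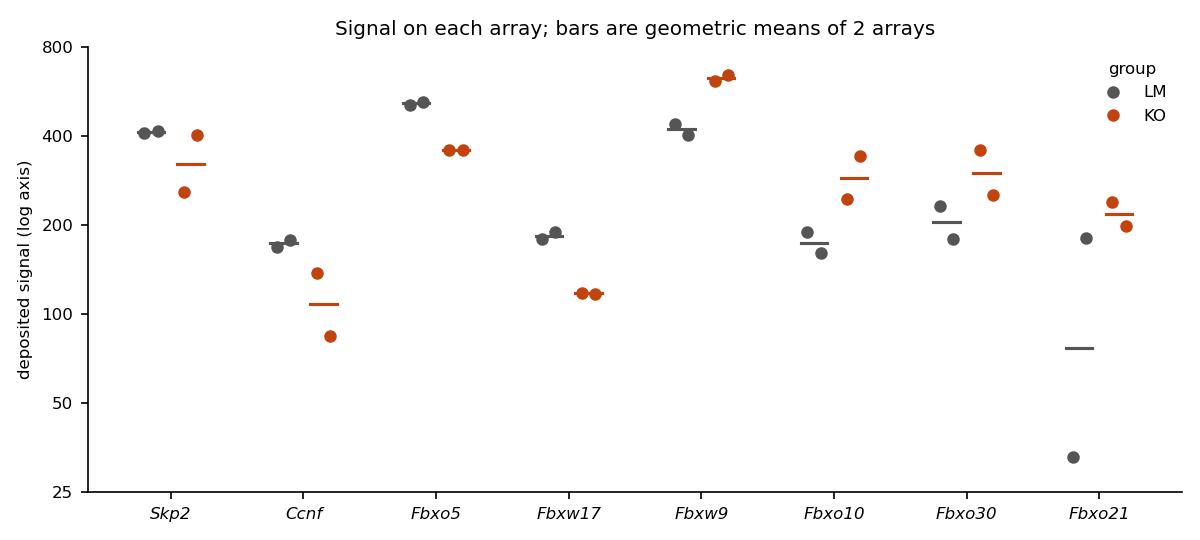
Deposited signal (log axis) of 8 F-box genes on each of the 2 LM and 2 KO arrays, with horizontal bars at the geometric mean of each group. Fbxo5, Fbxw17 and Fbxw9 separate the groups with little spread, while the Skp2 KO arrays lie at 258 and 402 and the Fbxo21 LM arrays at 32.9 and 181.

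Skp1, the adaptor shared by every SCF ligase, read 5813 and 6270 in LM, against 6515 and 5508 in KO. The groups overlapped, with a difference of -0.01 ± 0.10 (SE, limma adjusted p = 0.995) and a 95% interval of -0.22 to 0.21. Its second probe set differed by 0.05. The scaffold Cul1 read 1142 and 1269 in LM, against 1175 and 1224 in KO, a difference of 0.01 ± 0.17 (SE). Of the 22 SCF core and activating genes tested, 0 were called in limma, where 0.275% of all genes were. At an unadjusted p under 0.05 there were also 0, against 8.4% of all genes. Their median difference was -0.01, and 20 of the 22 lay within 0.25 of 0, as did 65.7% of all genes. Among them the RING subunit Rbx1 differed by 0.19, the ubiquitin-like modifier Nedd8 by -0.07 and the E2 enzyme Cdc34 by 0.32. The Skp2 cofactor Cks1b differed by -0.16 and its relative Cks2 by -0.29. The E3 partner Arih1 differed by -0.24 and the E2 enzyme Ube2d1 by 0.23. Of 9 subunits of the COP9 signalosome, which strips Nedd8 from cullins, 0 were called in limma. At an unadjusted p under 0.05 there was 1, or 11.1% against 8.4% of all genes, the catalytic subunit Cops5 (-0.43 ± 0.17, SE). The others with the smallest p were Cops8 (-0.43), Gps1 (-0.22) and Cops4 (-0.15), and the median was -0.12.

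Among the WD-repeat receptors, Fbxw9 had the smallest p of all members. It read 440 and 404 in LM, against 613 and 642 in KO, with no overlap, a difference of 0.56 ± 0.21 (SE, limma adjusted p = 0.447) and 1.47-fold more signal in KO. The difference was 0.54 to 0.58 with any 1 array left out. Fbxw17 lay the other way, at 179 and 190 in LM against 118 and 117 in KO, a difference of -0.63 ± 0.34 (SE, limma adjusted p = 0.697). It was close to background, where the fitted spread is wide, although its replicates lay close together.

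The best known WD-repeat receptors had smaller differences than these. Btrc, which with its paralog Fbxw11 recognises the phosphorylated NF-kB inhibitor and beta-catenin, read 738 and 689 in LM, against 649 and 622 in KO. The groups did not overlap, yet the difference was only -0.15 ± 0.19 (SE, limma adjusted p = 0.904), and its 4 tested probe sets ran from -0.36 to 0.21. Fbxw11 read 3548 and 3010 in LM, against 3579 and 3545 in KO, a difference of 0.14 ± 0.13 (SE). Its 5 tested probe sets ran from -0.80 to 0.14, the lowest of them from a probe set near background. Fbxw7, the receptor for Notch1, Myc and cyclin E, read 1130 and 1300 in LM, against 1222 and 1086 in KO, a difference of -0.06 ± 0.17 (SE). Its second probe set read 978 and 948 in LM, against 1182 and 1283 in KO, with no overlap and a difference of 0.36. The 2 probe sets thus differed in sign, and which transcripts each detects was not examined.

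Fbxw2 had 7 tested probe sets, of which 5 were lower and 2 higher in KO. Its representative read 2691 and 2636 in LM, against 2542 and 2573 in KO, a difference of -0.05 ± 0.13 (SE), while the highest of the others differed by 0.57 (unadjusted p = 0.0199, limma adjusted p = 0.491 over all probe sets). The remaining WD-repeat genes were Fbxw5 (-0.07), the Cul7 partner Fbxw8 (0.10), the limb gene Fbxw4 (-0.25) and Fbxw10 (-0.09). The 3 tested probe sets of Fbxw8 were all higher in KO, by 0.09 to 0.51. Fbxw16 entered the test only through its KO arrays, with 93.4 and 78.7 in LM, both below background, against 109 and 120 in KO. Its difference was 0.29 ± 0.42 (SE, limma adjusted p = 0.918) with a 95% interval of -0.62 to 1.20, which includes 0. Over the 11 tested WD-repeat receptors the median difference was -0.06, with 4 positive and 7 negative. The 8 that were not tested, Fbxw13, Fbxw14, Fbxw18, Fbxw19, Fbxw21, Fbxw22, Fbxw24 and Fbxw27, had signals of 0.4 to 87.8. All 8 lie on chromosome 9 in the RefSeq table, in a family of closely related mouse genes whose probe sets may share sequence.

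Among the 10 leucine-rich repeat receptors tested, the median difference was 0.02, with 5 positive and 5 negative. At an unadjusted p under 0.05 there were 0 of them, against 8.4% of all genes. Fbxl6 read 220 and 194 in LM, against 297 and 268 in KO, with no overlap and a difference of 0.40 ± 0.27 (SE, limma adjusted p = 0.786). Fbxl20 read 2268 and 1764 in LM, against 2188 and 2522 in KO, and its 4 probe sets were all higher in KO, by 0.17 to 0.35. Its difference was 0.04 without LM replicate 2, against 0.23 with all 4 arrays. Fbxl19, which also carries a zinc finger that binds unmethylated CpG, differed by 0.38 ± 0.28 (SE).

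Fbxl14, which recognises Snail proteins, read 5194 and 6074 in LM, against 5647 and 5134 in KO. The groups overlapped, and the difference of -0.06 ± 0.10 (SE) had a 95% interval of -0.27 to 0.16. The iron sensor Fbxl5, which marks the iron regulatory protein Ireb2, differed by 0.13 ± 0.17 (SE), and Ireb2 by 0.04. Fbxl17, a quality control receptor for wrongly paired BTB proteins and so a link to the Cul3 adaptors, read 469 and 487 in LM, against 415 and 489 in KO, a difference of -0.08 ± 0.22 (SE). The others were Fbxl12 (-0.0026), Fbxl7 (0.04) and the mitochondrial protein Fbxl4 (-0.18), which exceeded background on only 2 arrays. Fbxl12os, which is no receptor, differed by 0.06. Fbxl2, Fbxl8, Fbxl13, Fbxl15, Fbxl16, Fbxl18 and Fbxl21 had signals of 4.3 to 86.8 and were not tested.

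The Fbxo class, including Ccnf, held both the most positive and the most negative difference, with a median of 0.03 over 28 tested genes, 15 positive and 13 negative. Fbxo10, a receptor for the survival protein Bcl2, read 190 and 161 in LM, against 244 and 342 in KO. The groups did not overlap, and the difference was 0.65 ± 0.29 (SE, limma adjusted p = 0.582). It was 0.44 without KO replicate 2 and 0.86 without KO replicate 1. Fbxo30 read 232 and 180 in LM, against 358 and 253 in KO, a difference of 0.50 ± 0.29 (SE, limma adjusted p = 0.722). Its 3 tested probe sets were all higher in KO, by 0.50 to 0.64, and the difference was 0.24 without KO replicate 1.

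Fbxo11, the receptor that marks Bcl6 for degradation, read 1573 and 1924 in LM, against 2053 and 2057 in KO. The groups did not overlap, and the difference was 0.24 ± 0.15 (SE, limma adjusted p = 0.768), or 0.10 without LM replicate 1. Its substrate Bcl6 differed by 0.29. Fbxo32, the muscle atrophy receptor atrogin-1, read 433 and 383 in LM, against 491 and 460 in KO, a difference of 0.21 ± 0.22 (SE). Its 3 probe sets ran from -0.63 to 0.32.

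The largest difference among the members rested on 1 array. Fbxo21 read 32.9 and 181 in LM, against 240 and 199 in KO, a difference of 1.20 ± 0.55 (SE, limma adjusted p = 0.599). LM replicate 1 was far below the other 3, and without it the difference was 0.16, while without LM replicate 2 it was 2.24 and was called (limma adjusted p = 0.0237). A second Fbxo21 probe set read 133 and 124 in LM, against 118 and 124 in KO, a difference of -0.13. Fbxo41, a gene known from neurons, also had its low value on LM replicate 1, with 63.6 and 175 in LM, against 164 and 267 in KO. Its difference was 0.83 ± 0.45 (SE, limma adjusted p = 0.698), or 0.16 without LM replicate 1 and 1.51 without LM replicate 2.

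The subfamily named for sugar binding, of which some members recognise glycoproteins, had 1 member with a higher mean in KO and 3 with a lower one. Fbxo27 read 95.7 and 110 in LM, against 106 and 19.5 in KO, and its difference of -0.91 ± 0.62 (SE) was 0.02 without KO replicate 2 and -1.84 without KO replicate 1. Fbxo6 read 139 and 180 in LM, against 391 and 152 in KO, and its difference of 0.54 ± 0.41 (SE) was -0.13 without KO replicate 1 and 1.22 without KO replicate 2. Fbxo27 exceeded background on only 2 arrays, and its KO replicate 2 signal lay far below background. In each of the 2 genes 1 KO array stood apart from the other 3 arrays. Their relatives Fbxo44 and Fbxo17 differed by -0.30 and -0.10, and Fbxo2 was below background on all but 1 array.

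The remaining Fbxo genes differed by -0.25 to 0.30. Fbxo9 read 2457 and 2533 in LM, against 2166 and 2423 in KO, with no overlap and a difference of -0.12 ± 0.14 (SE). Fbxo3 read 1621 and 1554 in LM, against 1554 and 1608 in KO, a difference of 0.0015 ± 0.15 (SE), though its 5 probe sets ran from -0.47 to 0.15. Fbxo38, known to mark the inhibitory receptor PD-1 in T cells, read 1067 and 807 in LM, against 908 and 751 in KO, a difference of -0.16 ± 0.20 (SE). The cyclin D1 receptors Fbxo4 and Fbxo31 differed by -0.01 and 0.27, and their substrate Ccnd1 by 0.16. Fbxo22 (0.07), Fbxo33 (0.05), Fbxo34 (-0.05), Fbxo45 (-0.0038), Fbxo46 (-0.14), Fbxo28 (-0.25), Fbxo25 (0.25), Fbxo8 (0.18), Fbxo36 (0.30) and the parkinsonism gene Fbxo7 (-0.10) completed the class with Fbxo42. Not tested were Fbxo15, Fbxo16, Fbxo24 and Fbxo43, beside Fbxo2, with signals of 1.2 to 91.3 over the 5.

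Fbxo42 showed how far the choice of probe set mattered. Its representative read 559 and 296 in LM, against 351 and 581 in KO, a difference of 0.14 ± 0.30 (SE). Another of its 3 probe sets read 289 and 253 in LM, against 115 and 152 in KO, with no overlap and a difference of -0.98 (unadjusted p = 0.00723, limma adjusted p = 0.372 over all probe sets). Of 20 members with 2 or more tested probe sets, 8 had all of them on the same side of 0. In 9 members, Btrc, Fbxo3, Fbxo21, Fbxo22, Fbxo31, Fbxo32, Fbxo42, Fbxw2 and Fbxw11, probe sets of opposite sign lay over 0.5 apart. When all 96 tested probe sets were taken separately, 50 were lower and 46 higher in KO, 0 were called in limma, where 0.229% of all 21795 probe sets tested were called. At an unadjusted p under 0.05 there were 6 of the 96, or 6.25%, against 7.97% of all probe sets tested.

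**Figure D3:**
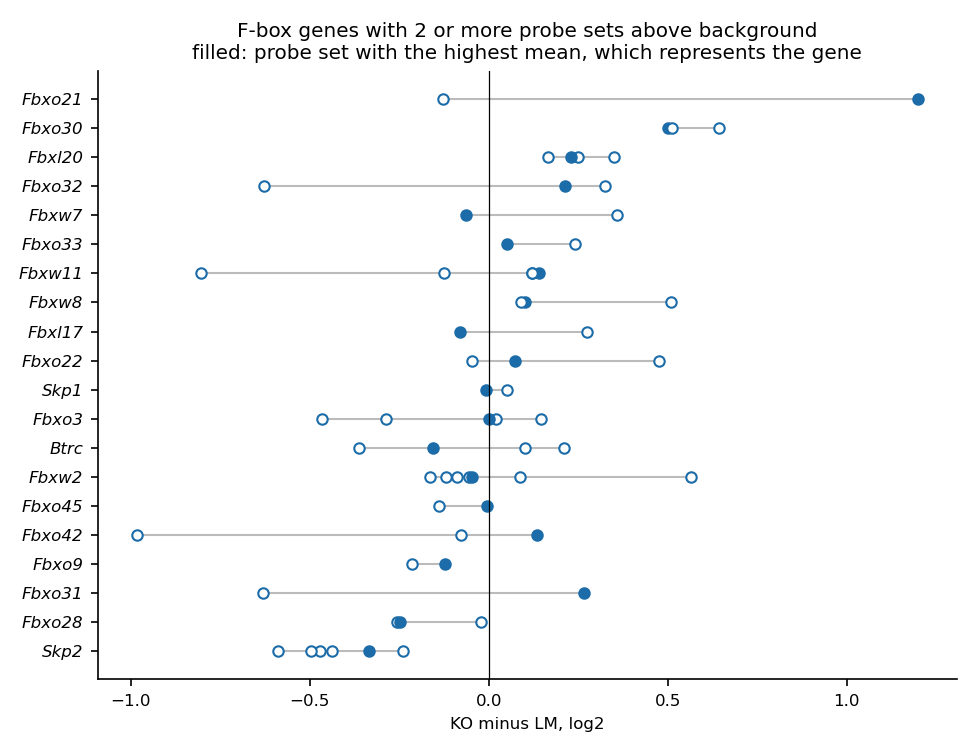
KO minus LM difference (log2) of each probe set above background, for the 20 F-box genes with at least 2, with a line joining the lowest and highest and a filled point for the probe set that represents the gene. All 6 Skp2 points lie left of 0, from -0.59 to -0.24, and all 3 Fbxo30 points right of it, while Fbxo21 and Fbxo42 span 0 widely.

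Genes listed as SCF substrates were taken next, for their RNA levels on the same arrays. Of 22 tested genes listed as substrates that act in the cell cycle, 1 fell past the threshold, where 0.142% of all genes did. It was Ccna2 (-1.11 ± 0.18, SE, limma adjusted p = 0.0241). Its protein, cyclin A2, is chiefly a target of the anaphase-promoting complex, so the call is not that of an established SCF substrate. At an unadjusted p under 0.05 there were 5, or 22.7%, all lower in KO, where 4.17% of all genes lay at such a p and lower. In all, 14 of the 22 were lower, with a median of -0.17. Rrm2, marked by cyclin F, differed by -0.93 (limma adjusted p = 0.0521), Cdc6 by -1.13 and the kinase Wee1 by -0.78. Ccp110, also marked by cyclin F, differed the other way, by 0.18 ± 0.34 (SE). The Skp2 substrate Cdkn1b (p27) read 4066 and 3892 in LM, against 4522 and 3838 in KO, a difference of 0.08 ± 0.12 (SE). The Fbxw7 substrates Myc and Ccne1 differed by -0.10 and -0.13. Ccna2 and Rrm2 also stand in the cell cycle list above, so the lists are not separate evidence.

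Of 27 tested substrates in signalling and transcription, 0 were called in limma, where 0.275% of all genes were, and 2 lay at an unadjusted p under 0.05, or 7.41% against 8.4% of all genes. The NF-kB inhibitor Nfkbia, marked by Btrc and Fbxw11, read 7091 and 7938 in LM, against 8978 and 8916 in KO, a difference of 0.25 ± 0.08 (SE, limma adjusted p = 0.351). Klf2, an egress factor and Fbxw7 substrate, differed by -0.48, the clock genes Cry1 and Per1 by 0.35 and 0.51, and the Fbxw7 substrate Notch1 by 0.10. The list median was 0.10, with 17 positive and 10 negative. Of 15 tested genes of the anaphase-promoting complex and its partners, which Fbxo5 restrains, 1 fell past the threshold, the E2 enzyme Ube2c (-1.23 ± 0.17, SE, limma adjusted p = 0.00868), where 0.142% of all genes did. At an unadjusted p under 0.05 there were 3, or 20%, all lower, where 4.17% of all genes lay at such a p and lower. The calls of Ccna2 and Ube2c are lost in the 2 fits named above for the cell cycle genes. Subunit Anapc1 differed by -0.94 and the activators Cdc20 and Fzr1 by -0.96 and 0.44, around a list median of -0.04.

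**Figure D4:**
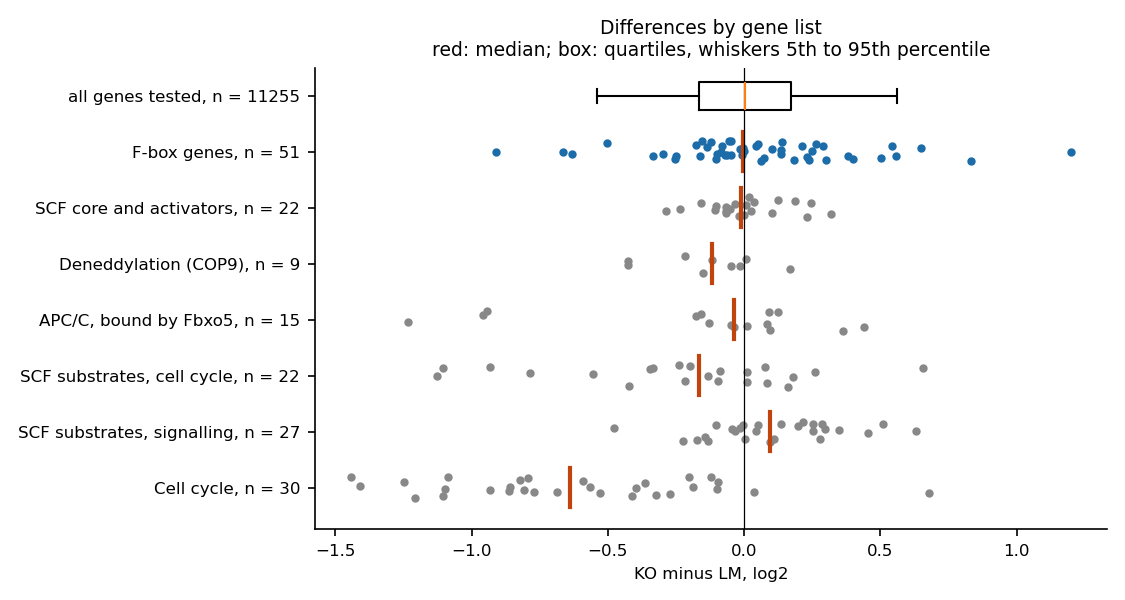
KO minus LM differences (log2) of the tested members of each gene list as points with the median in red, and of all 11255 genes tested as a box of quartiles with whiskers at the 5th and 95th percentiles. The F-box median lies at -0.0026 and the SCF core at -0.01, while the cell cycle list lies at -0.64.

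The Cul3 adaptors, the sister family, are given beside the F-box genes. Of 48 tested Kelch and KCTD adaptors of Cul3, 0 were called in limma and 3 lay at an unadjusted p under 0.05, with a median of -0.01, beside 0 and 3 of the 51 F-box genes. These were 6.25% and 5.88% at such a p, against 8.4% of all genes. Groups that did not overlap and were lower in KO made up 10 of the 48 adaptors (20.8%) and 5 of the 51 F-box genes (9.8%), against 18.3% of all genes. Those that were higher in KO numbered 9 in each family, 18.8% and 17.6%, against 19.1% of all genes. No test of the difference between the families was made.

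Single arrays moved many members. With each array left out in turn, 22 of the 51 tested members, or 43.1%, kept the sign of their difference in all 4 fits, against 50% of all genes tested. Fbxw9, Fbxo5, Fbxw17 and Btrc were among those that kept it, and so were Skp2 and Ccnf.

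**Figure D5:**
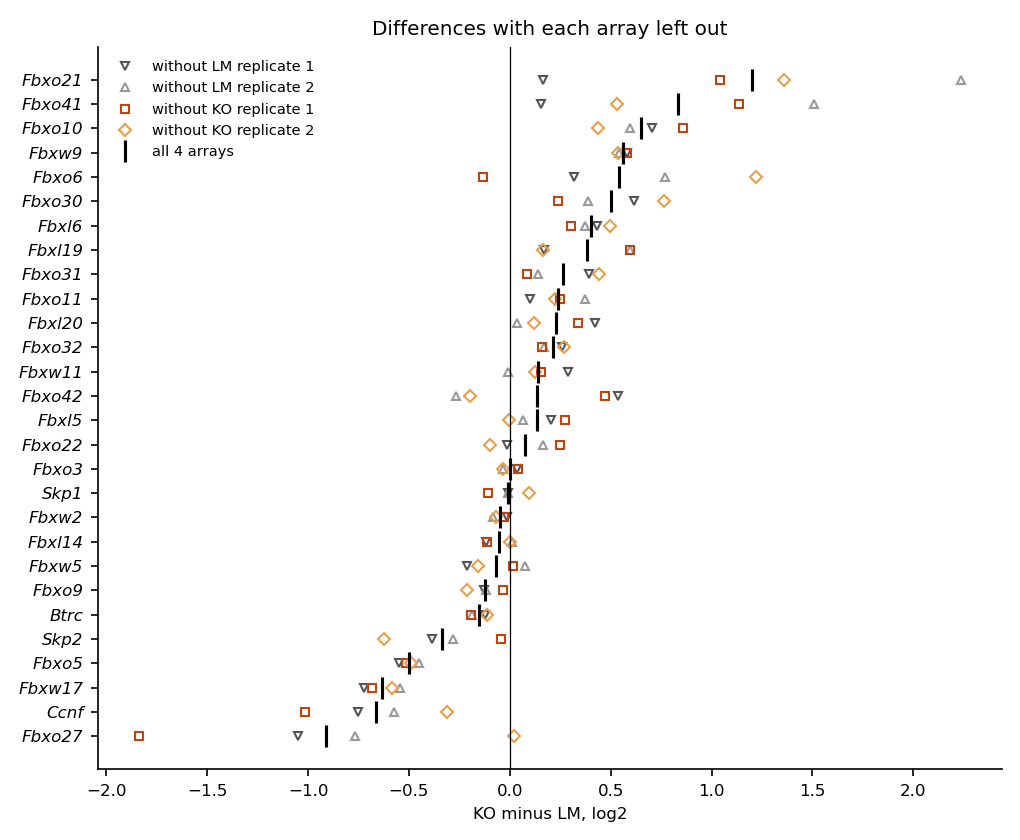
KO minus LM difference (log2) of 28 F-box genes with all 4 arrays (vertical bars) and with each array left out (open symbols). Symbols for Fbxw9, Fbxo5 and Fbxw17 stay near their bar, while those of Fbxo21 run from 0.16 to 2.24 and those of Fbxo27 from -1.84 to 0.02.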

How the data were processed

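The deposited values are signal intensities on a linear scale, for 45101 probe sets on each of 4 arrays, and each array has a mean of 500 after trimming 2% at both ends, so the deposited intensities were already scaled. RNA was extracted with Trizol and amplified with WT-Ovation Pico, per the labels' protocols. The summarisation program is not given in the sources used here. After 64 controls were removed, 34945 probe sets had 1 gene symbol, 932 several and 9160 none. All 71 F-box genes matched the RefSeq table by gene identifier, and 52 had a promoter window there.

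Differences were fitted over all 11255 tested genes on log2 values made from the deposited intensities, by limma 3.58.1 run under R 4.3.3 (lmFit and trended eBayes, genotype as the only term, 2 residual degrees of freedom) and adjusted by Benjamini-Hochberg at 0.05. The pseudocount of 16 understates changes of dim genes. Background was read on the normalized scale. Array number limits precision. Tables used pandas 2.3.3 and plots matplotlib 3.10.9.

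Named were Skp1, Skp2, Btrc, Ccnf and Fbxo5, the 15 members with the smallest p, the 10 with the highest mean, those with probe sets that disagree by over 0.5, and the leading genes of each list. Other members were named to account for all. The members, the gene lists and the genes singled out were chosen with earlier results of these data known. Replicate numbers did not pair the samples.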

Additional observations from a re-analysis of the deposited data

How the results depend on the processing

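With 15 alternatives run, 0 F-box genes were called under each that kept all 4 arrays, and 0 to 1 with an array left out, the 1 being Fbxo21 without LM replicate 2. Without either LM array the prior degrees of freedom were infinite, so a gene's own spread did not count there. The F-box median was -0.0507 with median centring, where the median of all genes was -0.05, and ran from 0.0089 to 0.0563 with an array left out. Calls over all genes were 31 in the fit reported, 0 without the filter on dim genes (1247 at an unadjusted p under 0.05), 0 without the intensity trend (922), 81 with median centring, 50 with separate probe sets, and 40 to 97 with an array left out. Fitting the replicate number as a replicate block gave 43 calls over all genes and 0 among F-box genes, and deviations of same-numbered arrays correlated at -0.0171. Signs turned for some members, and as 0 F-box genes were called in the fit reported, all of these were uncalled there. With the mean of all probe sets, Fbxo3 was at -0.12, Fbxo31 at -0.18, Fbxo32 at -0.0302, Fbxo42 at -0.31, Fbxw11 at -0.11, Fbxw2 at 0.026 and Skp1 at 0.0217. Fbxo3 was at -0.0057 without normalization and -0.0554 with median centring. With an array left out, 29 of the 51 tested members changed sign in at least 1 fit. Among the 28 members chosen by the naming rule, the ranges across 0 were -0.12 to 0.0089 for Fbxl14, -0.0030 to 0.27 for Fbxl5, -0.0984 to 0.25 for Fbxo22, -1.84 to 0.0211 for Fbxo27, -0.0349 to 0.038 for Fbxo3, -0.27 to 0.54 for Fbxo42, -0.13 to 1.22 for Fbxo6, -0.0086 to 0.29 for Fbxw11, -0.21 to 0.0735 for Fbxw5 and -0.11 to 0.0934 for Skp1. The other 19 included Fbxl4 (-0.69 to 0.34), Fbxo28 (-0.61 to 0.11), Fbxo25 (-0.07 to 0.58) and Fbxo4 (-0.37 to 0.34). The cause of these shifts was not tested.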
